A study of Arabidopsis thaliana with 33 samples.

Results

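Arabidopsis thaliana carries large families of glutathione transferases, and 40 of the 27432 nuclear protein-coding genes of the RefSeq TAIR10.1 gene table have a symbol that contains GSTU or GSTF followed by a number. These 40 genes, 27 of the tau class (GSTU) and 13 of the phi class (GSTF), are described here by the open-chromatin peaks in the gene or within 1000 bp of either end. A peak was counted for a gene when its summit, the position of strongest signal, lay in that window. The symbols were matched as written, so GSTU17, which the table enters as ERD9, was not among them. The seedlings were 10 days old and of the accession Columbia-0, and chromatin was assayed with DNase-seq, in which DNase I cuts accessible DNA in nuclei, and FAIRE-seq, which recovers DNA that formaldehyde has not crosslinked to protein. Heated seedlings were kept at 38 °C for 6 h, cold-treated seedlings at 4 °C for 24 h, salt-treated seedlings in 250 mM NaCl for 6 h, drought-treated seedlings were air dried for 1 h, and control seedlings had none of these. Whole seedlings were used, so tissues are mixed. Each group had 3 libraries in each assay, except cold with 2, but a group is represented by 1 peak list made from all its libraries. There are therefore 10 lists and no replicate error, every difference is between 2 lists without a test, and the number of reads behind a list is unknown. The lists held 57736 (heat), 64324 (cold), 55784 (salt), 45737 (drought) and 70807 (control) DNase-seq peaks, and 85366, 63060, 90465, 92034 and 72789 FAIRE-seq peaks in the same order, so the DNase-seq lists were shorter under every stress and the FAIRE-seq lists were longer under heat, salt and drought.

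Glutathione transferases join the tripeptide glutathione to reactive, electrophilic compounds, and in plants the conjugates are carried into the vacuole by ABCC transporters. The tau and phi classes hold most of the plant enzymes that act on herbicides and other foreign compounds, and several members also act as peroxidases or as carriers in secondary metabolism. Many of their genes are induced by chemicals, oxidants, salicylic acid or pathogens, in part through promoter elements bound by TGA factors. The genes are compact and often stand in tandem. Members measured 845 to 3160 bp, with a median of 1333 bp against 2078 bp for all protein-coding genes; GSTF8 was the longest, and the next was 1724 bp. A total of 21 members lay in 7 tandem runs, in which no other protein-coding gene came between members in the order of gene starts. The longest run by this rule was GSTU23, GSTU22, GSTU21, GSTU20 and GSTU19 on chromosome 1. The others were GSTF7, GSTF6, GSTF5 and GSTF4, GSTU24, GSTU25 and GSTU26, and GSTU12 and GSTU11 on chromosome 1, and GSTU6 and GSTU5, GSTU4, GSTU3 and GSTU2, and GSTF9 and GSTF10 on chromosome 2. In all, 31 members had another gene within 1000 bp. A peak between neighbours was counted for each of them. Because a short gene has a small window, shares among members are given beside shares among all genes. For gained and lost peaks, most are also given beside shares among the 8139 protein-coding genes of 800 to 1800 bp.

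Every one of the 40 genes had at least 1 peak summit in control seedlings in both assays, against 94.7% of all genes in DNase-seq and 93.8% in FAIRE-seq. Under stress, DNase-seq summits were found at 37 members in heated seedlings (89.9% of all genes), at 40 in cold-treated seedlings (92.9%), at 34 in salt-treated seedlings (90.4%) and at 34 in drought-treated seedlings (85.5%). FAIRE-seq summits were found at 40 members under heat (95.6% of all genes), 36 under cold (90.9%), 40 under salt (96.0%) and 40 under drought (96.3%). In all 10 lists, 29 members (72.5%) had a summit, against 77.7% of all genes and 71.9% of the genes of 800 to 1800 bp. Of these 29, 18 were tau and 11 phi genes, and those first along chromosome 1 were GSTF7, GSTF6, GSTF5, GSTU18, GSTU24, GSTU25, GSTU13, GSTU14, GSTF14, GSTU28, GSTU15, GSTU16, GSTU12, GSTU10 and GSTU22. The members without a DNase-seq summit were GSTF4, GSTU3 and ATGSTF13 under heat, GSTF4, GSTU26, GSTU4, GSTU3, GSTU8 and GSTU9 under salt, and GSTF4, GSTU26, GSTU23, GSTU19, GSTU4 and GSTU8 under drought. Without a FAIRE-seq summit under cold were GSTU11, GSTU23, GSTU3 and GSTU2. GSTF4 was thus the phi gene that lacked DNase-seq summits in 3 of the 4 stress lists while it had FAIRE-seq summits in all 5.

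**Figure D1:**
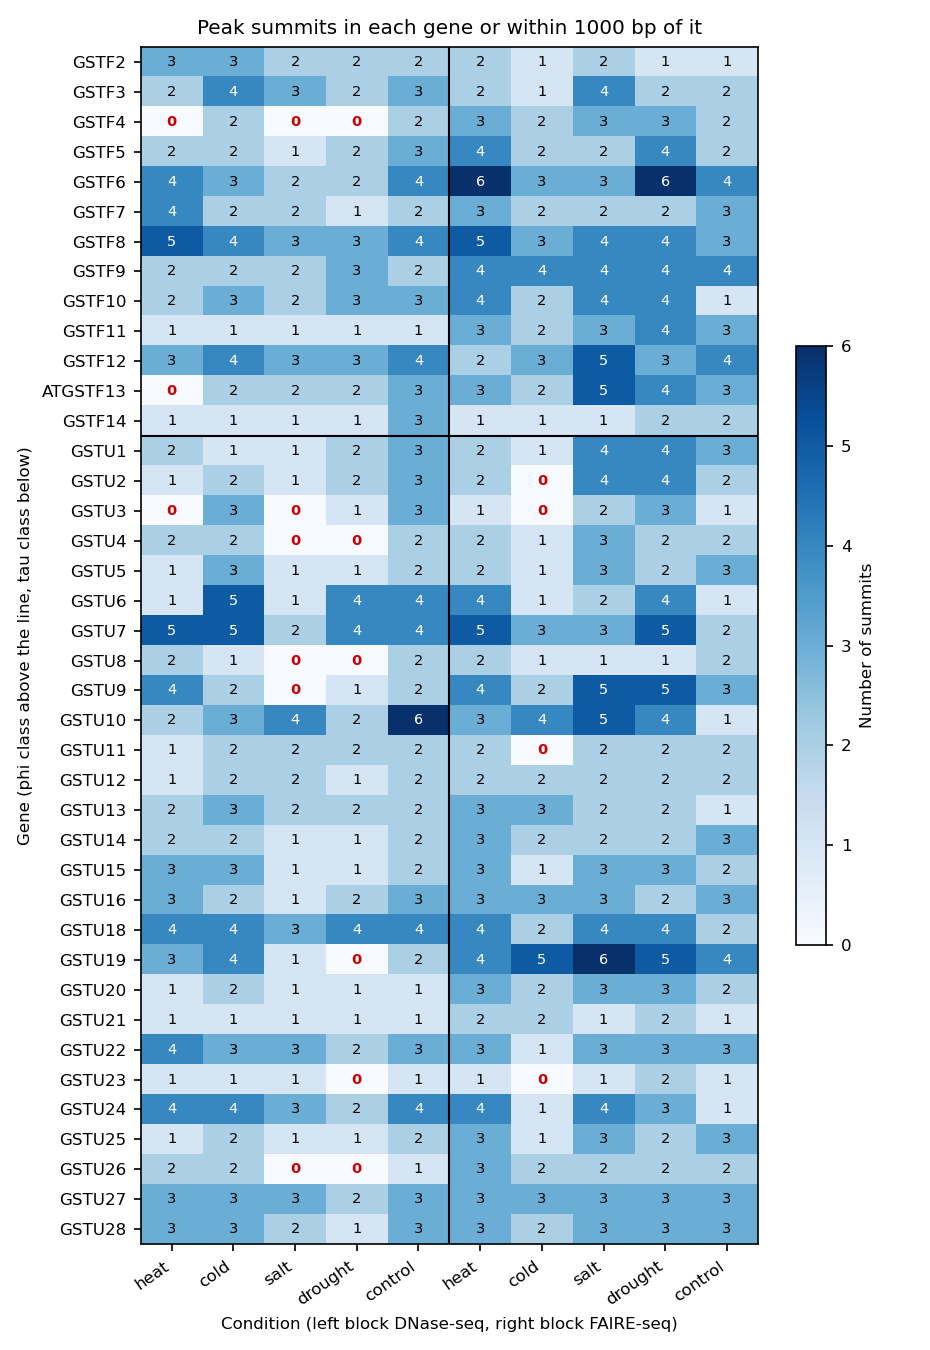
Number of peak summits at each of the 40 genes (down) in the DNase-seq and FAIRE-seq list of each condition (across), with darker cells for more summits and a red 0 where there was none. All 40 genes have at least 1 summit in both control lists, and the zeros stand mostly in the heat, salt and drought DNase-seq columns and the cold FAIRE-seq column.

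Under salt and drought, most glutathione transferase genes had a gained FAIRE-seq peak, and most had a lost DNase-seq peak. These calls were counted separately, not as a pair in the same gene, and many other genes had them too. Gained means a peak of the stress list with no base in common with the control list, and lost means a peak of the control list with no base in common with the stress list, always within 1 assay. In FAIRE-seq, 28 members had a gained peak in salt-treated seedlings (70.0%, against 64.1% of all genes and 52.2% of genes of 800 to 1800 bp), and 30 in drought-treated seedlings (75.0%, against 65.4% and 53.7%). In DNase-seq, 26 members had a lost peak under salt (65.0%, against 48.2% of all genes and 37.1% of genes of 800 to 1800 bp), and 30 under drought (75.0%, against 62.1% and 50.7%). These FAIRE-seq shares were thus somewhat above those of all genes and further above those of genes of 800 to 1800 bp. Both the FAIRE-seq gains and the DNase-seq losses depended on the length of the lists. Each DNase-seq list was reduced to its peaks of highest −log10 q (q being the authors' adjusted p of a peak), as many as the shortest DNase-seq list held. Then 15 of the 40 members had a lost peak under salt (24.6% of all genes) and 10 under drought (27.7% of all genes). With FAIRE-seq lists likewise reduced to equal length, 19 members had a gained peak under salt (46.7% of all genes) and 23 under drought (46.4%). Few DNase-seq peaks were gained in either stress: 0 members had one under salt (3.21% of all genes, 1.97% of genes of 800 to 1800 bp) and 2 under drought (3.36% and 2.32%), and with lists of equal length 3 members had one under salt (12.4% of all genes) and 8 under drought (12.6%). FAIRE-seq losses were found at 14 members under salt (30.7% of all genes, 26.8% of genes of 800 to 1800 bp) and 11 under drought (25.5% and 21.6%).

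In heated seedlings 23 members had a gained FAIRE-seq peak (57.5%, against 54.9% of all genes and 43.5% of genes of 800 to 1800 bp), and 13 when the FAIRE-seq lists had equal lengths (38.6% of all genes). A gained DNase-seq peak was found at 11 members (27.5%, against 45.0% and 37.6%), with lists of equal length 18 (48.2% of all genes), and 7 when each summit counted for the nearest gene alone (33.5%). DNase-seq peaks were lost at 18 members under heat (45.0%, against 53.8% and 41.1%), and FAIRE-seq peaks at 7 members (17.5%, against 20.1% and 15.9%). Cold was the stress in which FAIRE-seq losses outnumbered gains: 21 members lost a FAIRE-seq peak (52.5%, against 56.9% and 48.9%) and 7 gained one (17.5%, against 31.8% and 22.5%). The cold FAIRE-seq list was the shortest, and with lists of equal length 15 members lost one (47.1% of all genes) and 9 gained one (41.0%). In DNase-seq, 11 members had a gained peak under cold (27.5%, against 28.2% and 22.8%) and 11 a lost peak (27.5%, against 42.2% and 31.1%); with lists of equal length 19 members gained one (29.8% of all genes). Counting each summit for the nearest gene alone left 5 members with a DNase-seq gain under cold (20.8% of all genes) and 7 with a loss (33.6%), and a 500 bp window left 7 with a gain (22.9%). With peaks of −log10 q of at least 5, where q is the authors' adjusted p of a peak, 2 members had a FAIRE-seq gain under cold (25.7% of all genes) and 4 a FAIRE-seq loss under heat (17.1%). A narrower window or the nearest gene left 1 member with a DNase-seq gain under drought. The cold groups pooled 2 libraries in place of 3, and the part of this in the cold results was not tested. By class, DNase-seq peaks were lost under drought at 20 of the 27 tau genes and 10 of the 13 phi genes, and FAIRE-seq peaks were gained under salt at 20 tau and 8 phi genes.

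**Figure D2:**
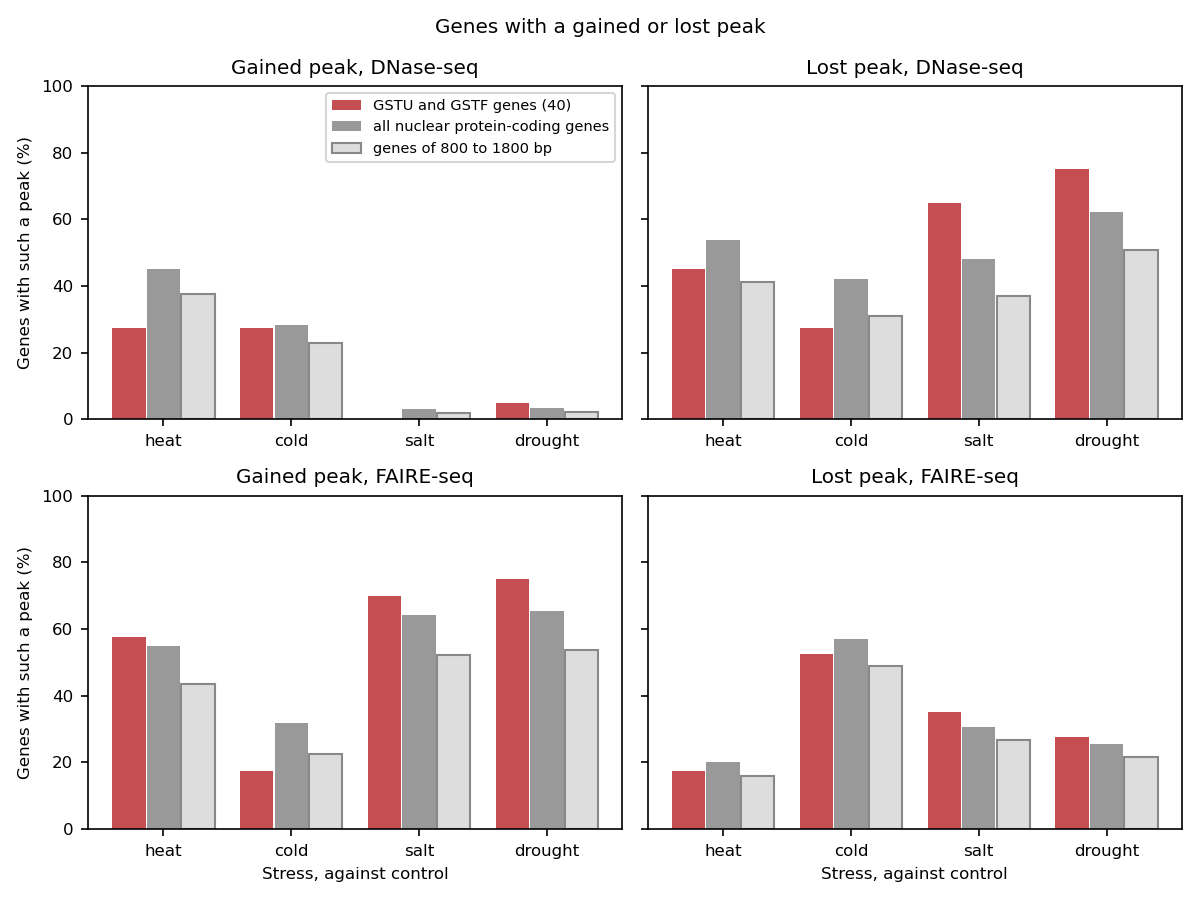
Share of genes (percent) with a gained or lost peak under each stress in each assay, for the 40 GSTU and GSTF genes, all protein-coding genes and genes of 800 to 1800 bp. The members' bars for salt and drought reach 70.0% and 75.0% for FAIRE-seq gains and 65.0% and 75.0% for DNase-seq losses, while DNase-seq gains there are at 0 and 2 members.

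Every member had at least 1 gained or lost peak in 1 of the comparisons; 4.53% of all genes had none. Of 16 possible calls (4 stresses, 2 assays, 2 directions), members had a median of 6, as had all genes, and genes of 800 to 1800 bp had 5. GSTU16 had the most, with 13, and GSTU4 had 11. GSTF9 and GSTU27 had 1 call each. GSTF9 belongs with its neighbour GSTF10 (ERD13) to the phi genes linked to indole glucosinolate formation, and its one call was a DNase-seq peak outside the gene, gained under drought and counted for GSTF10 too. The pair of DNase-seq peaks in GSTF9 had fold enrichments of 2.53 and 2.56 in heated, 2.90 and 3.04 in cold-treated, 3.60 and 5.39 in salt-treated, 6.96 and 7.56 in drought-treated, and 3.93 and 4.20 in control seedlings. Fold enrichment is the peak's height over its local background as the authors' peak caller wrote it, and since lists differ in scale it ranks a peak within its own list. Ranked so, the upper of these peaks was above 72.0% (heat), 78.8% (cold), 93.3% (salt), 84.2% (drought) and 83.9% (control) of its list. GSTF10 itself had 10 calls. Its gained FAIRE-seq peak, on chromosome 2 at 13141882 to 13142439 when joined over the stress lists, was present under all 4 stresses and absent in control seedlings.

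**Figure D3:**
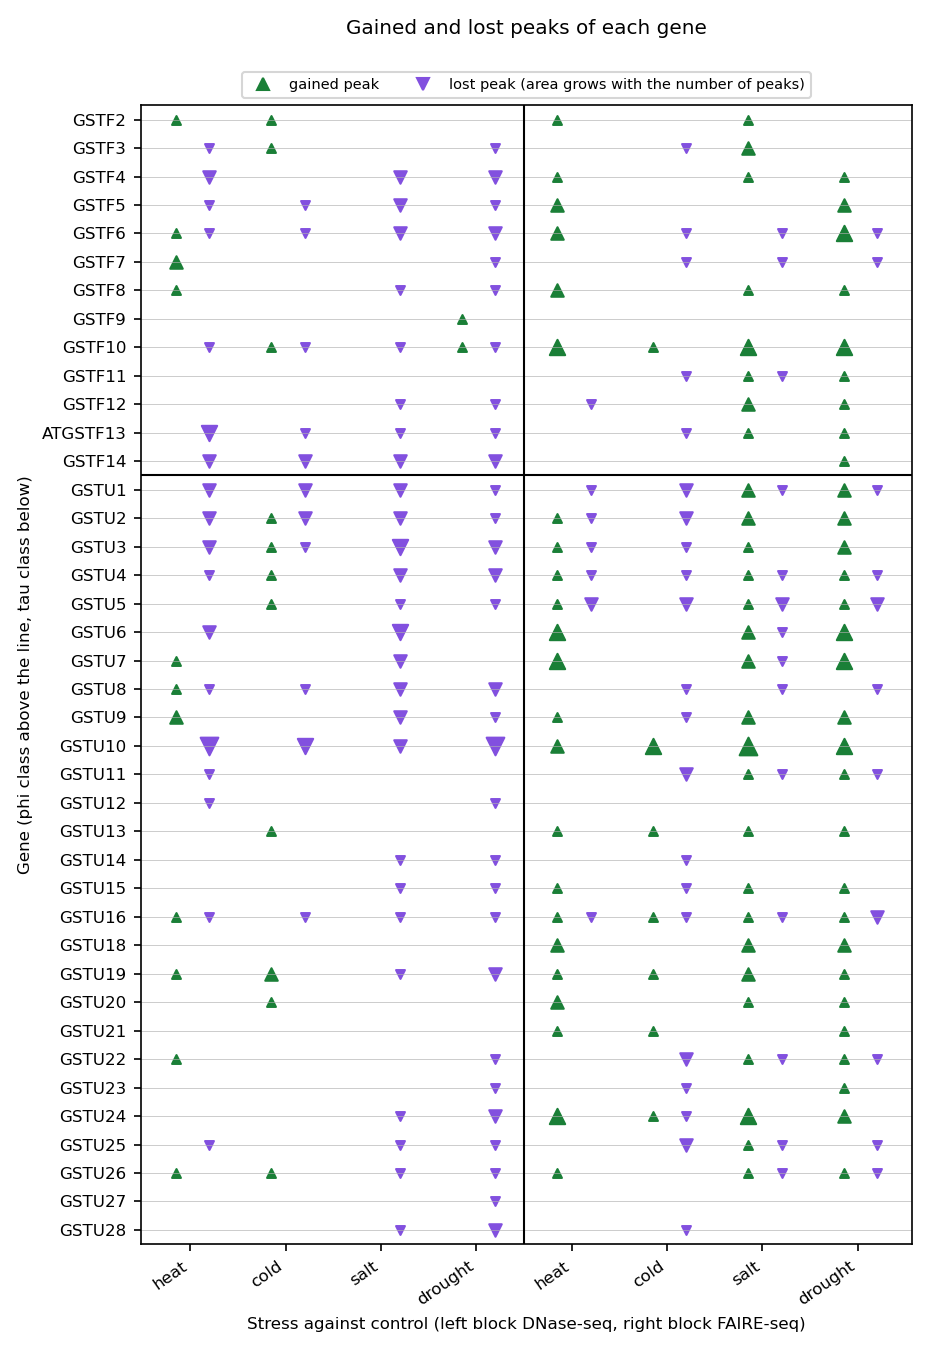
Gained (upward triangles) and lost (downward triangles) peaks at each of the 40 genes, by stress and assay, with larger symbols for more peaks. Salt and drought columns hold mostly lost peaks in DNase-seq and gained peaks in FAIRE-seq; GSTU16 has symbols in 13 of 16 places, and GSTF9 and GSTU27 in 1 each.

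GSTU19, GSTU24, GSTU25 and GSTU26 are tau genes of detoxification. GSTU19 encodes an abundant enzyme that conjugates herbicides and is induced by herbicide safeners. Its strongest DNase-seq peak, within the gene, had a fold enrichment of 5.85 in cold-treated seedlings (chromosome 1 at 29486487 to 29487045), above 99.9% of that list and the highest of any member in it. The peak at this site had a fold enrichment of 2.54 in heated, 2.92 in salt-treated and 3.30 in control seedlings, above 71.2%, 45.9% and 63.4% of their lists, and drought-treated seedlings had no DNase-seq peak at GSTU19. FAIRE-seq peaks at the same site were listed in all conditions, with fold enrichments of 2.85 (heat), 4.64 (cold), 3.49 (salt), 2.92 (drought) and 2.24 (control), above 84.8%, 97.8%, 89.9%, 87.4% and 56.5% of the lists. In both assays the peak thus ranked highest under cold. A second GSTU19 site, at 29487493 to 29487832, had a gained FAIRE-seq peak under all 4 stresses and a DNase-seq peak in heated, cold-treated and control seedlings, which salt-treated and drought-treated seedlings lacked.

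GSTU24 and GSTU25, which encode enzymes that act on the explosive trinitrotoluene, stand next to each other. GSTU24 gained FAIRE-seq peaks under all 4 stresses, among them one in the gene at 5869862 to 5870213 of chromosome 1. It lost a FAIRE-seq peak under cold, at 5868534 to 5868683. GSTU25 gained a FAIRE-seq peak under salt, at 5872279 to 5872422, and lost the one at 5873429 to 5873696 under cold, salt and drought; it had a fold enrichment of 2.70 in control seedlings, above 81.7% of that list. Both genes lost DNase-seq peaks under salt and drought. GSTU26, next to it and induced by chloroacetanilide herbicides, had 2 DNase-seq peaks under heat and 2 under cold, 0 under salt, 0 under drought and 1 in control seedlings. The gained DNase-seq peak lay at 5875981 to 5876364 in heated seedlings (fold enrichment 2.67) and at 5875995 to 5876292 in cold-treated seedlings (2.54), and each of the 5 FAIRE-seq lists held a peak at this place. The control DNase-seq peak, at 5875414 to 5875717, was lost under salt and drought, and FAIRE-seq peaks were gained there under heat, salt and drought.

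FAIRE-seq peaks were gained inside the tau genes GSTU16 and GSTU20, and both inside and outside GSTU10. At GSTU16 a FAIRE-seq peak within the gene, on chromosome 1, was gained under all 4 stresses, with fold enrichments of 2.18 (heat), 1.99 (cold), 2.56 (salt) and 2.21 (drought), above 49.7%, 6.83%, 56.9% and 51.0% of the lists. The control FAIRE-seq peak at 21936237 to 21936353, close to it, had a fold enrichment of 2.31 and was in none of the stress lists. Control DNase-seq had a peak over the gained site, at 21936534 to 21936732 (2.29), which was kept under heat, cold and drought and lost under salt. GSTU10 had 3 FAIRE-seq peaks in heated, 4 in cold-treated, 5 in salt-treated and 4 in drought-treated seedlings, and 1 in control seedlings. The gained peaks under heat, both outside the gene, were weak and lay above 1.07% and 1.04% of that list. DNase-seq ran the other way at GSTU10, with 2 peaks in heated, 3 in cold-treated, 4 in salt-treated, 2 in drought-treated and 6 in control seedlings. GSTU20, whose product binds FIN219 (JAR1), an enzyme of jasmonate signalling, kept a DNase-seq peak within the gene in all 5 lists, with fold enrichments of 1.98 (heat), 3.01 (cold), 4.57 (salt), 6.84 (drought) and 4.72 (control). FAIRE-seq gained peaks over it under heat, salt and drought, 704 bp wide in drought-treated seedlings (at 29484445 to 29485148 of chromosome 1, 2.70), while cold-treated and control seedlings had none there.

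Among phi genes linked to defence and pigment, GSTF6 kept its strongest control FAIRE-seq peak and GSTF12 its strongest control DNase-seq peak under all 4 stresses. GSTF6 (ERD11), which takes part in the formation of the phytoalexin camalexin, and its neighbour GSTF5 share a FAIRE-seq peak about 100 bp outside GSTF6, on chromosome 1 at 662479 to 662657 in control seedlings. Its fold enrichment was 3.96 in heated, 5.36 in cold-treated, 4.75 in salt-treated, 3.82 in drought-treated and 4.34 in control seedlings, above 98.0%, 99.1%, 98.9%, 98.6% and 99.1% of the lists. It was the highest FAIRE-seq peak of any member under cold, salt, drought and in control seedlings; under heat GSTU7 had the highest, with 4.08. The DNase-seq peak at this site behaved otherwise: it was listed in drought-treated (4.32) and control (2.16) seedlings and was lost under heat, cold and salt. GSTF12 (TT19), needed to bring anthocyanins to the vacuole, held the highest DNase-seq peak of any member in control seedlings, within the gene. Its fold enrichment was 2.93 in heated, 5.08 in cold-treated, 5.12 in salt-treated, 10.9 in drought-treated and 5.97 in control seedlings, above 84.1%, 99.3%, 90.8%, 96.3% and 99.1% of those lists. FAIRE-seq listed this site in all 5 conditions too, at 2.96 (heat), 3.30 (cold), 4.00 (salt), 3.10 (drought) and 3.15 (control). GSTF8, known for a promoter that responds to hydrogen peroxide and salicylic acid, gained peaks in both assays under heat, at 19557831 to 19557980 of chromosome 2 in DNase-seq and at 19557766 to 19557867 in FAIRE-seq. Both were weak, above 7.26% of the DNase-seq and 24.6% of the FAIRE-seq list, and this window also belongs to the neighbouring gene AT2G47720.

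The members' strongest DNase-seq peaks ranked lower than those of genes at large, with the widest gap in medians under salt and drought. For each gene with a summit, its strongest peak was ranked in its list. The median member lay above 73.9% of the heat, 72.4% of the cold, 62.2% of the salt, 58.7% of the drought and 73.9% of the control DNase-seq list, against 79.6%, 80.1%, 79.0%, 78.0% and 82.0% for all genes with a summit. Genes of 800 to 1800 bp stood at 79.0% under salt and 77.0% under drought. In FAIRE-seq the medians were 81.2%, 74.0%, 82.8%, 83.5% and 86.0% for members, against 82.3%, 75.6%, 83.1%, 82.8% and 79.3% for all genes. In FAIRE-seq, 16 of the 40 members had a peak above 90% of the heat list (31.2% of all genes with a summit). In the control list 17 (42.5%) had one, against 27.3% of all genes with a summit. Among these 17, GSTF5 and GSTF6 shared a single peak, as did GSTU4 and GSTU5. The other FAIRE-seq lists lay closer to all genes. They held 9 of 36 members with a summit under cold (24.7% of all genes), 14 of 40 under salt (33.2%) and 14 of 40 under drought (31.8%). In DNase-seq, 3 members with a summit (8.82%) had a peak above 90% of the list under salt, against 25.6% of all genes. There were 4 (11.8%) under drought and 5 (12.5%) in control seedlings, against 25.9% and 30.9% of all genes. Under heat there were 8 of 37 members with a summit (27.4% of all genes), and under cold 8 of 40 (28.5%). By this measure the DNase-seq gap was widest in control seedlings. GSTU22 had the strongest member peak of the heat DNase-seq list (fold enrichment 4.58, above 99.6% of it) and GSTF7 those of the salt (5.48, 94.0%) and drought (11.5, 97.4%) lists. Their summits lay outside the genes, 767 bp from GSTU22, and 619 bp (salt) and 584 bp (drought) from GSTF7. Both GSTF7 peaks were also in the window of LPA1. In control FAIRE-seq, 44.6% of summits counted for members lay inside the gene, against 60.1% for all genes and 50.0% for genes of 800 to 1800 bp. Under heat, cold, salt and drought it was 51.7%, 48.6%, 52.1% and 50.8%, against 51.5%, 52.3%, 53.3% and 53.1% for genes of 800 to 1800 bp. In control DNase-seq the shares were 61.9%, against 66.6% and 56.9%. The stress DNase-seq lists gave 59.1%, 61.2%, 72.6% and 60.0% in the same order, against 54.0%, 57.5%, 60.1% and 58.8% for genes of 800 to 1800 bp.

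**Figure D4:**
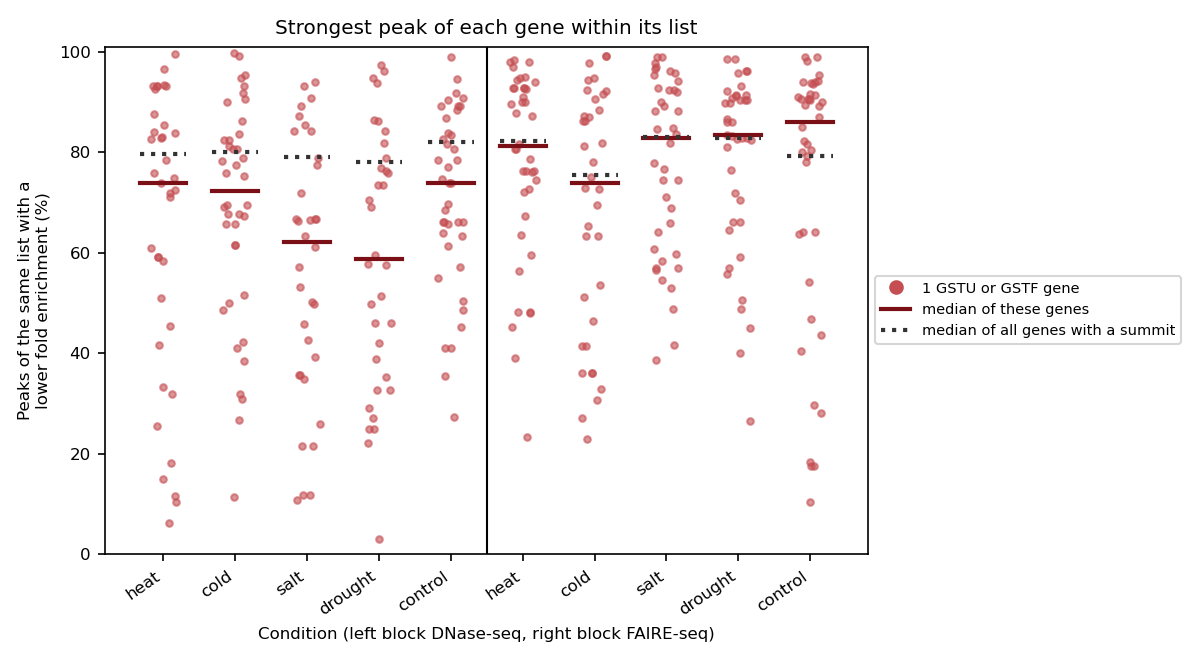
Rank of the strongest peak of each of the 40 genes, as the percent of peaks in the same list with a lower fold enrichment, by condition, with DNase-seq left and FAIRE-seq right of the line. Solid bars (medians of these genes) lie below dotted bars (medians of all genes with a summit) in all 5 DNase-seq lists, by most under salt (62.2% against 79.0%) and drought (58.7% against 78.0%), and the solid bar lies above the dotted one in control FAIRE-seq (86.0% against 79.3%).

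At a number of sites one assay lost a peak and the other gained one. Under salt, 13 of the 32 control DNase-seq peaks lost at members (40.6%) overlapped a gained FAIRE-seq peak of the same stress, against 28.3% of lost DNase-seq peaks at all genes. Under drought this held for 10 of 38 (26.3%, against 29.2%), under heat for 5 of 24 (20.8%, against 18.2%) and under cold for 1 of 12 (8.33%, against 7.28%). The reverse, a lost FAIRE-seq peak over a gained DNase-seq peak, was seen at 1 of 23 lost peaks under cold (4.35%, against 5.04% at all genes), and at 0 of 6 under heat (against 10.8%), 0 of 12 under salt (against 0.152%) and 0 of 11 under drought (against 0.708%). GSTU9 gives an example: a DNase-seq peak of control seedlings at 25088837 to 25089081 of chromosome 5 (fold enrichment 3.03) was lost under salt, where a FAIRE-seq peak at 25088838 to 25089064 with a fold enrichment of 2.67 was gained. Both DNase-seq peaks of control seedlings at GSTU9 were lost under salt, and each overlapped a gained FAIRE-seq peak. The like was seen under salt at GSTU26, GSTU16, GSTU19, GSTU6 and GSTF4. More broadly, most gained FAIRE-seq peaks lay where control DNase-seq already had a peak: 25 of 32 under heat (78.1%), 6 of 9 under cold (66.7%), 34 of 40 under salt (85.0%) and 32 of 39 under drought (82.1%), against 52.0%, 57.2%, 59.5% and 55.8% at all genes. Gained FAIRE-seq peaks joined into 52 sites, of which 14 were gained in 1 stress, 17 in 2, 15 in 3 and 6 in all 4; gained DNase-seq peaks joined into 19 sites, 16 in 1 stress and 3 in 2.

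Calls in the same direction by both assays were counted per member, at any place in its window. Under heat 8 members had a gained peak in both, namely GSTF6, GSTU26, GSTU16, GSTU19, GSTU7, GSTF8, GSTF2 and GSTU9 (27.5% of all genes). Under cold 3 did, GSTU13, GSTU19 and GSTF10 (7.50%, against 10.5% and 5.79%). Under salt 0 did (against 2.50% and 1.14%), and under drought GSTF10 alone (2.50%, against 2.40% and 1.19%). A lost peak in both assays was found at 5 members under heat, GSTU16, GSTU4, GSTU3, GSTU2 and GSTU1 (12.5%, against 12.1% and 6.86%). Under cold there were 7 (17.5%, against 26.1% and 15.6%), GSTF6, GSTU16, GSTU3, GSTU2, GSTU1, GSTU8 and ATGSTF13. Under salt there were 10 (25.0%, against 15.9% and 10.5%) and under drought 10 (25.0%, against 16.3% and 10.3%). GSTF6, GSTU25, GSTU26, GSTU16, GSTU5, GSTU4, GSTU1 and GSTU8 were among the 10 in salt and in drought alike, 2 comparisons that share their control lists; GSTU7 and GSTU6 were added under salt, and GSTF7 and GSTU22 under drought. The 2 assays need not have lost the same site: such a member had a lost peak of each assay anywhere in its window.

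Some members had calls under every stress, all set against the same control list. Gained FAIRE-seq peaks under all 4 stresses were found at 6 members (23.1% of all genes), GSTU24, GSTU13, GSTU16, GSTU10, GSTU19 and GSTF10, and gained DNase-seq peaks at 0 (0.124%). GSTU13 belongs to the indole glucosinolate pathway. A lost DNase-seq peak under each of the 4 stresses, not always at the same site, was found at 11 members (27.5%, against 26.8% and 15.9%). A lost FAIRE-seq peak under each was found at 4 (10.0%, against 11.3% and 9.01%). Counted as single control peaks, 43 of the 94 control DNase-seq peaks at members (45.7%, against 44.9% at all genes) were shared with all 4 stress lists and 6 (6.38%, against 8.66%) with none. In FAIRE-seq 54 of 81 (66.7%, against 66.6%) were shared with all 4 and 4 (4.94%, against 3.34%) with none. The 6 DNase-seq peaks lay on both flanks of GSTF14, within GSTU10, within GSTU8 (chromosome 3 at 2848428 to 2848569, fold enrichment 2.76), within GSTU2 and outside ATGSTF13. The 4 FAIRE-seq peaks lay within GSTU16, within GSTU5 (chromosome 2 at 12624527 to 12624674, 2.47), between GSTU5 and GSTU4, and outside GSTU1, where the last is also in the window of AT2G29500.

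The array from GSTU7 to GSTU1 on chromosome 2 holds 7 members and shows these patterns over 14603 bp. Other protein-coding genes come between some of its members, so it was not counted as 1 run, and GSTU7 and GSTU1 fell outside the runs. Summits of 6 DNase-seq peaks lay in it in heated, 13 in cold-treated, 4 in salt-treated, 8 in drought-treated and 12 in control seedlings, and of 9, 2, 11, 12 and 6 FAIRE-seq peaks in the same order. Cold-treated seedlings thus had the most DNase-seq and the fewest FAIRE-seq peaks there, and salt-treated seedlings the fewest DNase-seq peaks. GSTU5, described as an auxin-inducible gene, had one broad DNase-seq peak of 1760 bp in heated seedlings, at 12624416 to 12626175 (fold enrichment 3.44), which covered both DNase-seq peaks of control seedlings there, at 12624860 to 12625035 (2.70) and 12625317 to 12625566 (4.52). In cold-treated seedlings 3 separate peaks of 290, 310 and 148 bp were listed, in salt-treated seedlings 1 of 100 bp and in drought-treated seedlings 1 of 250 bp. FAIRE-seq gained a peak within GSTU5 at 12625254 to 12625509, joined over heat, salt and drought, over the stronger of the control DNase-seq peaks. At GSTU4 the control DNase-seq peak at 12627417 to 12627556 (2.66) was kept under heat and cold and lost under salt and drought, and FAIRE-seq peaks were gained there under heat, salt and drought. Salt-treated and drought-treated seedlings had no DNase-seq summit in the GSTU4 window.

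**Figure D5:**
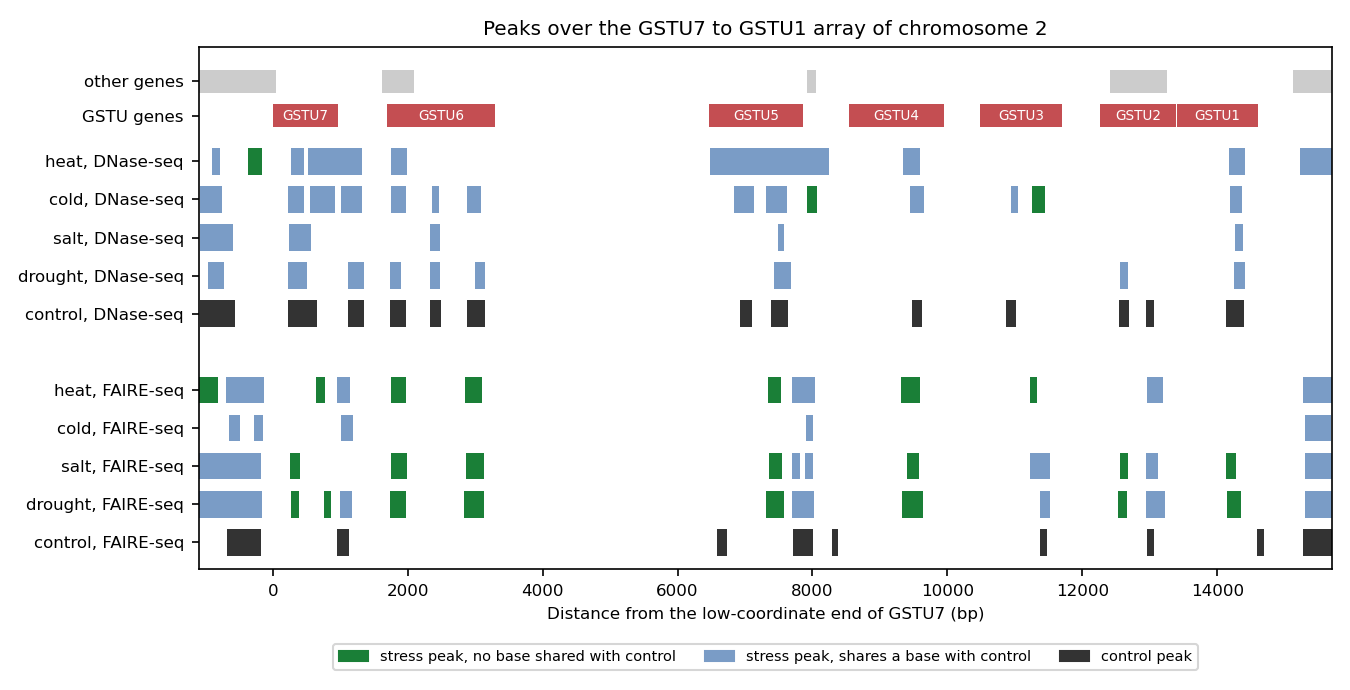
Peaks over the GSTU7 to GSTU1 array, drawn to scale by distance from the low-coordinate end of GSTU7 in bp, with the 7 GSTU genes and the other genes at the top and 1 line per condition and assay below. Green marks stress peaks that share no base with the control list, blue those that do, and dark grey control peaks; the array from GSTU7 to GSTU1 holds the fewest summits on the salt DNase-seq line (4) and the cold FAIRE-seq line (2), and the green peaks stand mostly on the heat, salt and drought FAIRE-seq lines.

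Other genes of glutathione metabolism were counted in the same way. A list of 31 other glutathione genes held enzymes of glutathione synthesis (GSH1, GSH2), reduction (GR1, GR2) and breakdown (GGT1), other transferase and dehydroascorbate reductase genes (GSTZ1, GSTL3, DHAR1), the vacuolar conjugate pumps ABCC1 and ABCC2, and the TGA factors. Of the 31, gained FAIRE-seq peaks were found at 22 in heated (71.0%, against 54.9% of all genes), 13 in cold-treated (41.9%, against 31.8%), 28 in salt-treated (90.3%, against 64.1%) and 27 in drought-treated seedlings (87.1%, against 65.4%). Lost DNase-seq peaks were found at 22 (71.0%, against 53.8%), 22 (71.0%, against 42.2%), 24 (77.4%, against 48.2%) and 26 (83.9%, against 62.1%) in the same order. Gained DNase-seq peaks were found at 20 (64.5%, against 45.0%), 12 (38.7%, against 28.2%), 0 (against 3.21%) and 2 (6.45%, against 3.36%). Lost FAIRE-seq peaks were found at 10 (32.3%, against 20.1%), 22 (71.0%, against 56.9%), 11 (35.5%, against 30.7%) and 9 (29.0%, against 25.5%). The transporter genes ABCC1 and ABCC2 were called in both directions: each had a gained FAIRE-seq and a lost DNase-seq peak in each of the 4 stresses. ABCC1 also had a lost FAIRE-seq peak in each, and ABCC2 under heat, cold and drought; a gained DNase-seq peak was found at both under heat and at ABCC2 under cold. Apart from DNase-seq gains under salt, the shares in this list were above those of all genes for gains and losses alike. No share among genes of like length was computed for it. These genes differ in length from the members, and the difference between the lists was not tested.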

How the data were processed

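Each of the 5 conditions has 1 deposited peak list per assay, and the labels tie a list to every library of the group. The way libraries were combined and their depth are unknown. D and F in the titles were taken as DNase-seq and FAIRE-seq, and 5 RNA samples were not analysed here. Per the submitters' processing notes, the tools included Bowtie2, SAMtools and MACS2 and the build was TAIR10; a cut-site shift, which would move DNase-seq summits, is not stated there. The deposited fold enrichment (a ratio over local background) and the deposited −log10 of the q-value are the authors' values per peak. The deposited score column was not used for any result.

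Genes came from the RefSeq TAIR10.1 table. It names another build than the lists, so it was used only to place peaks, and its coordinates are not printed; 75.0% of control DNase-seq summits lay in genes, against 57.1% with genes shifted by 2000 bp. The table holds no strand, so a planned split into promoter and 3′ flank was reduced to inside and outside the gene, and a planned motif comparison was not run. Peaks were joined and counted with pandas 2.3.3 and numpy 2.4.6, and the counting was tested on simulated peaks. With 1 list per group there was no test. Members are named where a stress gave them a gained or a lost peak in both assays, where they hold the strongest member peak of a list, where they have a summit in none or all of the lists (the first 15 by locus), where they stand in a tandem run, or by a list of symbols with known roles; those named for the most or fewest calls, for a missing summit, or for a change under every stress were chosen after their values were seen. The members, the list of other glutathione genes and the rules were chosen with earlier results of these data known; the genes of 800 to 1800 bp were chosen after seeing the data. Alternatives were a −log10 q of at least 5, lists of equal length, 50% coverage as overlap, a window of 500 bp, assignment to the nearest gene, and membership by symbol or synonym (42 genes).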

Additional observations from a re-analysis of the deposited data

Results flagged for a closer look

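Members called in 1 direction in each of the 4 stresses, but not in the same direction, are given here. Each comparison uses the same control list, and the differences between stresses were not tested. A gained peak shares no base with a control peak, so the opposite calls of a member lie at different places in its window. In DNase-seq, GSTU26 had 1 gained peak under heat, 1 gained under cold, 1 lost under salt and 1 lost under drought. GSTU19 had 1 gained peak under heat, 2 gained under cold, 1 lost under salt and 2 lost under drought. GSTU4 had 1 lost peak under heat, 1 gained under cold, 2 lost under salt and 2 lost under drought. In FAIRE-seq, GSTU15 had 1 gained peak under heat, 1 lost under cold, 1 gained under salt and 1 gained under drought. GSTU9 had 1 gained peak under heat, 1 lost under cold, 2 gained under salt and 2 gained under drought.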

How the results depend on the processing

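Of 146 values recomputed under 6 alternatives, 131 stayed within 1.5 times. Some of these were counts of members with a summit, which mostly lay near their ceiling of 40 and could hardly move so far. The members called could differ too. With lists of equal length, 19 members had a DNase-seq gain under cold, of which 6 were among the 11 as reported. For FAIRE-seq gains under salt, 18 of 19 were among the 28 as reported. With lists of equal length, members with a gained DNase-seq peak numbered 18 in heated, 19 in cold-treated, 3 in salt-treated and 8 in drought-treated seedlings, those with a lost one 15 under salt and 10 under drought, and those with a gained FAIRE-seq peak under heat 13. With −log10 q of at least 5, cold gained FAIRE-seq peaks at 2 members and heat lost them at 4. With a 500 bp window, 7 members gained a DNase-seq peak under cold and 1 under drought. Counting a summit for the nearest gene alone gave 7 gained under heat, 5 under cold and 1 under drought, and 7 lost under cold, all in DNase-seq; the other counts moved less. The overlap and synonym choices moved none past 1.5 times. Replicates could not be left out because each group has 1 pooled list. No paired analysis was possible because libraries with the same number share that list. Read depth is unknown, so a peak missing from a short list may be below detection. In salt FAIRE-seq, 40 distinct gained peaks gave 44 pairs of a peak and a member, and in 32 of these pairs the peak also counted for another gene.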
